A study of Mus musculus with 16 samples.

Results

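A set of 10 genes for cold-inducible RNA-binding proteins and splicing proteins was followed in the mouse hippocampus: Cirbp, Rbm3, Srsf1, Srsf2, Srsf3, Srsf5, Srsf6, Srsf7, Srsf11 and Rbm33. The genes were listed by name after earlier results of the same arrays had shown lower Cirbp and Srsf5 signal in enriched housing, so the housing differences of the members are given below as a description. Counts of members past a threshold in housing comparisons stand beside the share of all probe sets and support nothing. Of the 10 genes, 9 had a probe set that carries 1 gene symbol. They had 16 probe sets among the 21780 single-symbol probe sets tested (19935 genes). Srsf7 was without one and has no value here. Rbm3, Srsf3 and Rbm33 had 3 probe sets each and Srsf5 had 2, while the other 5 genes had 1 each.

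Hippocampal RNA was read on 16 Affymetrix Mouse Gene 1.0 ST arrays, which carry probes along the whole transcript. All mice were females of 3 months from an F2 cross of C57BL/6J and DBA, either cbp+/- (heterozygous for a deficiency of Crebbp) or wild-type littermates. They lived in an enrichment box with wheels, tubing and toys for 2 weeks (3 arrays per genotype, CBP_EE and WT_EE) or in a standard cage (5 arrays per genotype, CBP_SC and WT_SC). Each array held RNA pooled from 4 mice, so that 64 mice were used and, per the labels, replicates of a group are separate pools. The spread between animals within a pool cannot be seen. Levels are log2 of the deposited signal. The sources used here do not name the build behind the array's probes.

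Cirbp and Rbm3 encode small RNA-binding proteins whose transcripts are made or kept at higher levels when mammalian cells are cooled mildly. Both are also known to follow the daily cycle of body temperature, and Rbm3 has been studied in mouse hippocampus for its part in the regrowth of synapses after cooling. The SR proteins encoded by the Srsf genes bind exonic sequences and recruit the spliceosome through domains rich in arginine and serine. Many SR transcripts are themselves spliced alternatively around a poison exon, which sends the RNA to decay. Crebbp encodes CBP, an acetyltransferase that CREB recruits to promoters holding a cAMP response element.

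The promoters of Cirbp and Srsf5 are shown because these genes were the reason for the choice of the set and because CBP acts through CREB. RefSeq lists 2 start sites for Cirbp and 1 for Srsf5 (GRCm38.p6), and each window runs from 250 bases before the start site to 50 after it on the plus strand, chr10:80167589-80167888, chr10:80167921-80168220 and chr12:80945249-80945548. Capitals mark the mild-cold response element TCCCCGCC in the first and the short form TGACG of the cAMP response element, read on either strand, in the others.
Cirbp, first start site: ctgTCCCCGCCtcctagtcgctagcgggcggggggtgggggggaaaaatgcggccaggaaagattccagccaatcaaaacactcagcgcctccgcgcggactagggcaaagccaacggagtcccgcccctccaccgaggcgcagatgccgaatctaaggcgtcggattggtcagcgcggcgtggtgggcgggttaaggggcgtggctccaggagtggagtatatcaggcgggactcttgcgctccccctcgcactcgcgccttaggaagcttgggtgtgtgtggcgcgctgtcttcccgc
Cirbp, second start site: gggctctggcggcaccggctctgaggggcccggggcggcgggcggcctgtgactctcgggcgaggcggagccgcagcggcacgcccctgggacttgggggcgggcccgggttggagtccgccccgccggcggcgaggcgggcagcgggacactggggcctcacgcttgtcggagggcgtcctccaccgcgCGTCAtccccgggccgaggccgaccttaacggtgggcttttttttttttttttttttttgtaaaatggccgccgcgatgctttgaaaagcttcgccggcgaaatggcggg
Srsf5: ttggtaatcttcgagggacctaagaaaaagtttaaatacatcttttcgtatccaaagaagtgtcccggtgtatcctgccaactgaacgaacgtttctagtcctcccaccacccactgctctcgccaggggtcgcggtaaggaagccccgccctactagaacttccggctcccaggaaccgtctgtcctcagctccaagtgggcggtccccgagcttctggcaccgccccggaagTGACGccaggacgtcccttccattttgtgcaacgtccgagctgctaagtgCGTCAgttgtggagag
The mild-cold response element of Cirbp began at -247 from the start site, and 5.38% of 32851 mouse promoters of the same length held these letters on either strand. The short form lay at -60 from the second Cirbp start site, and at -16 and 34 from that of Srsf5. It was found in 20.8% of all promoters.

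RefSeq promoters were matched for 9 of the 10 genes, with 11 windows in all. The cAMP response element TGACGTCA (1.79% of all promoters), the E-box CACGTG (7.15%) and the heat shock core GAANNTTC (7.86%), each searched on both strands, had no match in these windows. The short form TGACG, which is also contained in the full element, had 1 match each in the promoters of Srsf1, Srsf2 and Srsf6, 3 in that of Srsf3 and 2 in 1 of the Srsf11 promoters. The promoter of Srsf7 also held the mild-cold letters. The 11 windows held 56% to 70% G and C, against a median of 52.7% over all promoters. These matches describe the letters of the windows and no binding was measured.

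The arrays did not fall apart by group alone. Clustering on all probe sets gave 4 array sets: replicates 1, 2 and 4 in standard cages with replicates 1 and 2 in enrichment, the pair CBP_SC_3 and WT_SC_3, then CBP_EE_3 with CBP_SC_5 and WT_SC_5, and WT_EE_3 alone. Housing results are therefore also given for replicates 1 and 2, which all lie in the first set in every group. This choice leaves out CBP_SC_4 and WT_SC_4 of the same set. They read below replicates 1 and 2 of their groups on every member probe set except Rbm33 on 10520371 and 10520379. The wild-type Srsf5 difference on 10396926, for example, was -0.50 with replicates 1 and 2 alone and -0.35 in the whole first set. Crebbp had a log2 signal of 9.36 ± 0.025 in CBP_EE and 9.26 ± 0.082 in WT_EE (SD, n = 3 each), and of 9.57 ± 0.22 in CBP_SC and 9.43 ± 0.18 in WT_SC (n = 5 each). It was thus not lower on the arrays labelled cbp+/-. The sources used here do not say where its probes lie relative to the mutation, so the labels could not be checked by it. All 8 neuron markers and all 10 markers of the hippocampal formation lay above the table's median, as did all 8 astrocyte markers and all 7 oligodendrocyte markers that had a probe set (of 8 listed). The summed level of the astrocyte markers (log2) ranged from 13.23 to 13.38 in CBP_EE and was 13.34, 13.36 and 12.87 on the WT_EE arrays, against 13.24 to 13.38 in CBP_SC and 13.27 to 13.38 in WT_SC. That of the oligodendrocyte markers ranged from 11.82 to 11.91 in CBP_EE and was 11.88, 12.00 and 11.40 on the WT_EE arrays, against 11.77 to 12.31 in CBP_SC and 11.72 to 12.34 in WT_SC. WT_EE_3, the array with the lowest Cirbp signal, was thus the lowest of the 16 in both lists. The summed level of 8 choroid plexus markers ranged from 9.27 to 9.41 in CBP_EE, 9.15 to 10.18 in WT_EE, 9.11 to 12.87 in CBP_SC and 9.04 to 11.2 in WT_SC (log2). The part of these marker levels in the results was not tested.

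Cirbp, the cold-inducible RNA-binding protein, had the lowest signal in wild-type mice after enrichment and the highest in both standard-cage groups. Its log2 signal was 8.44, 8.56 and 8.38 on CBP_EE arrays 1 to 3, against 8.83, 8.78, 8.39, 8.63 and 8.80 on CBP_SC arrays 1 to 5. In wild type it was 8.15, 8.40 and 7.73 on the WT_EE arrays, against 8.76, 8.72, 8.38, 8.70 and 8.91 on the WT_SC arrays. WT_EE_3 was the lowest of all 16 arrays, and in each housing comparison the standard-cage replicate 3 reached down into the range of the enriched arrays, so that the groups overlapped.

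The group means of Cirbp were 8.46 ± 0.091 in CBP_EE and 8.09 ± 0.34 in WT_EE (SD, n = 3 each), and 8.69 ± 0.18 in CBP_SC and 8.69 ± 0.19 in WT_SC (n = 5 each). Ordered by level, the standard-cage groups did not differ beyond their spread, CBP_EE came next and WT_EE was last, with overlap between each pair of neighbours. The difference of enrichment from standard cage was -0.22 (SE 0.14) in cbp+/- mice and -0.60 (SE 0.14) in wild-type mice, where the fold was 0.66. Averaged over genotypes it was -0.41 (SE 0.10). These differences are relative signals of whole tissue, in which fewer cells of a type and less RNA per cell cannot be told apart.

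**Figure D1:**
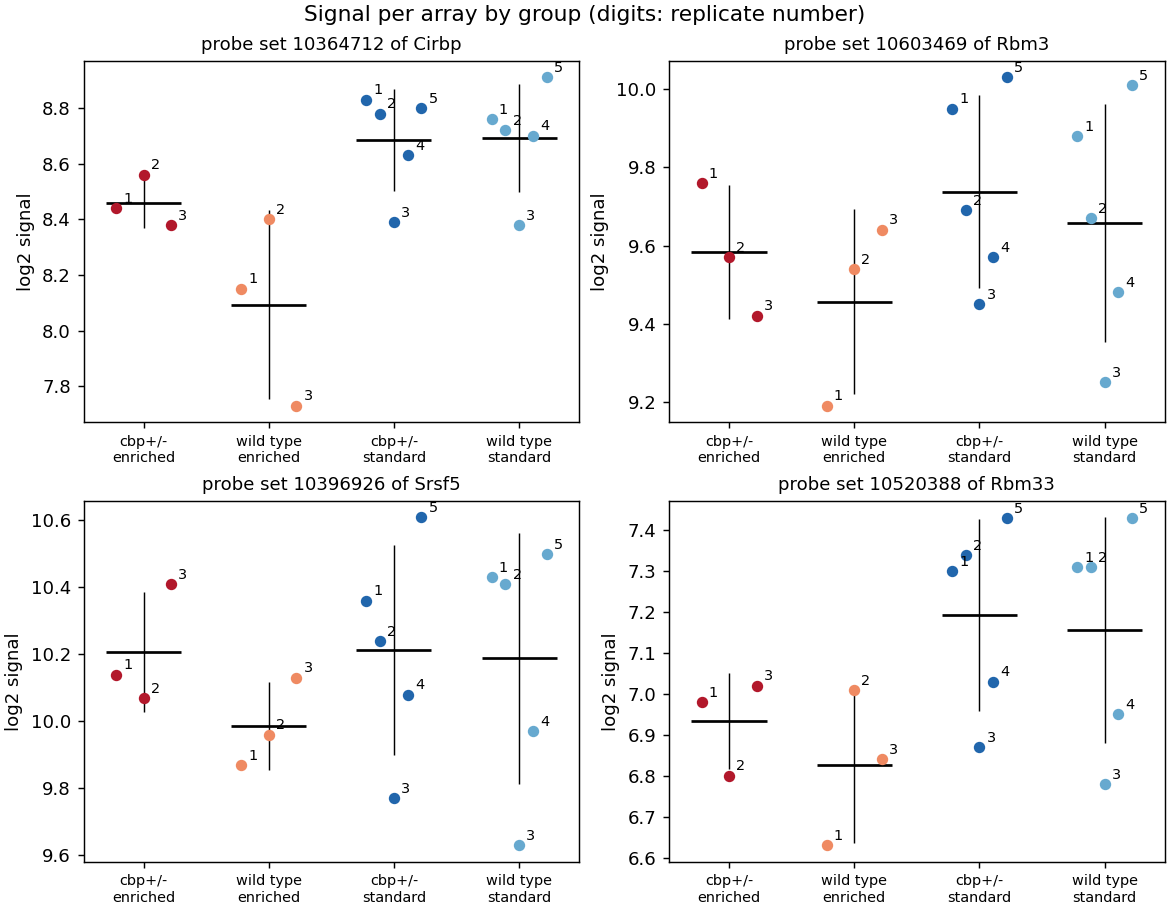
Log2 signal of 4 member probe sets on each array, by group (dots, with the replicate number of the title; bars are group means and vertical lines are ± 1 SD, n = 3 in enrichment and 5 in standard cages). For Cirbp, WT_EE_3 at 7.73 lies below every other array, and standard-cage replicate 3 lies lowest of its group in all 4 panels.

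The wild-type Cirbp difference depended on WT_EE_3 in size, not in sign. Without that array it was -0.42, and with the replicates 1 and 2 alone it was -0.46 (SE 0.085), beside -0.30 (SE 0.085) in cbp+/- mice. Within the first array set it was -0.24 in cbp+/- and -0.45 in wild-type mice. The single arrays of the third set, both labelled cbp+/-, differed by -0.42. By replicate number, Cirbp was lower in enrichment in 6 of 6 same-numbered pairs (-0.39, -0.22 and -0.01 in cbp+/- mice, and -0.61, -0.32 and -0.65 in wild type). It was the 1 member probe set of 16 with this pattern, which 6.32% of all tested probe sets had. Replicate numbers were not shown to pair arrays across housings, so these pairs are not taken as blocks.

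Rbm3, the other cold-inducible RNA-binding protein, had lower mean signals in enrichment in both genotypes, by less than its spread. On probe set 10603469 its log2 signal was 9.76, 9.57 and 9.42 on the CBP_EE arrays, against 9.95, 9.69, 9.45, 9.57 and 10.03 on the CBP_SC arrays. On the wild-type arrays it was 9.19, 9.54 and 9.64 in enrichment, against 9.88, 9.67, 9.25, 9.48 and 10.01 in standard cages. The enriched arrays lay within the standard-cage range, except CBP_EE_3 and WT_EE_1 just below it.

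The Rbm3 difference was -0.15 (SE 0.17) in cbp+/- and -0.20 (SE 0.17) in wild-type mice on probe set 10603469. The other 2 probe sets of Rbm3 gave -0.17 and -0.19 in cbp+/- mice, and -0.21 and -0.23 in wild type. In the platform's numbering probe set 10603469 lies among probe sets of genes of chromosome X, where Rbm3 is, while 10358454 lies among those of chromosome 1 (8 of 10 neighbours) and 10556113 among those of chromosome 7 (10 of 10). The 3 rows may therefore read more than 1 copy of the sequence, and they moved together across arrays (r of 0.97 or more between deviations from the group means, 16 arrays). They are 1 measurement rather than 3.

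The same-numbered housing differences of Rbm3 were spread widely in wild type, also between replicates 1 and 2, and less in cbp+/- mice. The numbers were not shown to pair arrays across housings, so these differences depend on the matching. On probe set 10603469 the same-numbered differences were -0.19, -0.12 and -0.03 in cbp+/- mice and -0.69, -0.13 and 0.39 in wild-type mice. With replicates 1 and 2 alone the wild-type difference was -0.41 (SE 0.13), and the mean over the 4 pairs of both genotypes was -0.28.

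Srsf5, an SR protein that promotes exon inclusion, had lower enriched signal in replicates 1 and 2 of both genotypes and higher enriched signal in replicate 3 of both. On probe set 10396926 its log2 signal was 10.14, 10.07 and 10.41 on the CBP_EE arrays, against 10.36, 10.24, 9.77, 10.08 and 10.61 on the CBP_SC arrays. On the wild-type arrays it was 9.87, 9.96 and 10.13 in enrichment, against 10.43, 10.41, 9.63, 9.97 and 10.50 in standard cages. The enriched arrays lay within the range of the standard-cage arrays in both genotypes, because standard-cage replicate 3 was the lowest array of its group.

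Over all arrays the Srsf5 difference was 0 to 2 decimals (SE 0.20) in cbp+/- and -0.20 (SE 0.20) in wild-type mice, where the standard error was about as large as the difference. By number, the cbp+/- pairs differed by -0.21, -0.17 and 0.64, and the wild-type pairs by -0.55, -0.44 and 0.50. With replicates 1 and 2 alone the differences were -0.19 (SE 0.065) in cbp+/- and -0.50 (SE 0.065) in wild-type mice. Without WT_SC_3 the wild-type difference was -0.34. In the first array set it was -0.12 in cbp+/- and -0.35 in wild-type mice. The other Srsf5 probe set, 10508490, gave -0.04 in cbp+/- and -0.22 in wild-type mice over all arrays, lies among probe sets of chromosome 4 genes although Srsf5 is on chromosome 12, and followed the first across arrays (r = 1.00).

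Rbm33, a large RNA-binding protein, gave different pictures on its 3 probe sets. Probe set 10520388 was lower in enrichment in both genotypes, with 6.98, 6.80 and 7.02 on the CBP_EE arrays, against 7.30, 7.34, 6.87, 7.03 and 7.43 on the CBP_SC arrays. In wild type it read 6.63, 7.01 and 6.84 in enrichment, against 7.31, 7.31, 6.78, 6.95 and 7.43 in standard cages. Standard-cage replicates 1, 2 and 5 lay above every enriched array, while replicates 3 and 4 lay among or near them.

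The difference on this Rbm33 probe set was -0.26 (SE 0.16) in cbp+/- mice, -0.33 (SE 0.16) in wild-type mice and -0.30 (SE 0.11) on average. Within the first array set it was -0.34 in cbp+/- and -0.37 in wild-type mice, and -0.41 between the single cbp+/- arrays of the third set. On the probe sets 10520371 and 10520379 the differences were -0.12 and -0.13 in cbp+/- mice, and 0.05 and -0.05 in wild type. Deviations of probe set 10520388 from the group means went against those of 10520371 (r = -0.51, 16 arrays). The 3 probe sets all lie among probe sets of chromosome 5, the chromosome of Rbm33, so a single level of the gene is not given.

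**Figure D2:**
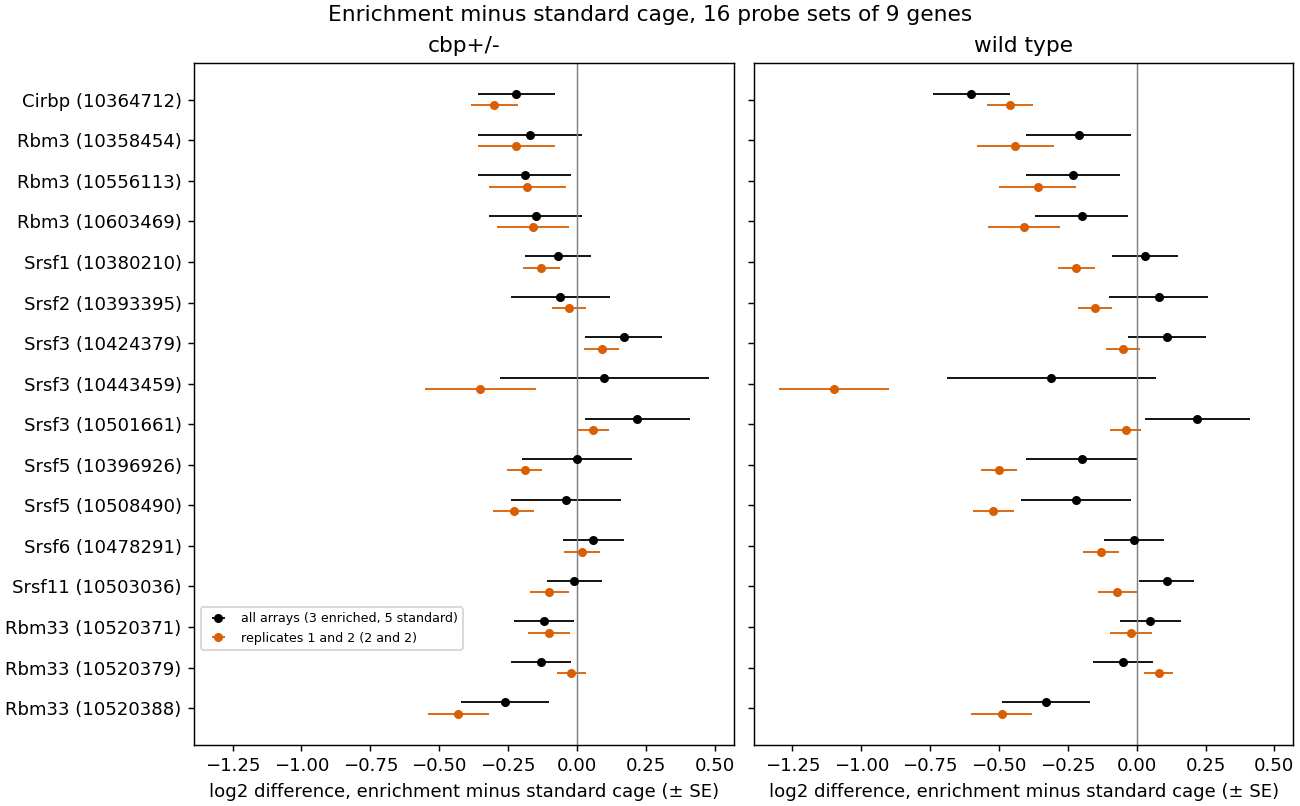
Log2 difference of enrichment minus standard cage for the 16 member probe sets, cbp+/- at the left and wild type at the right (points; bars are ± 1 SE of the fit), over all arrays in black and over replicates 1 and 2 alone in orange. Cirbp is below 0 in every case, and Srsf3 on probe set 10443459 in wild type has -0.31 over all arrays and -1.10 over replicates 1 and 2.

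Srsf3, the smallest SR protein, which shuttles between nucleus and cytoplasm, had 3 probe sets of which 1 behaved unlike the others. Probe set 10443459, the one that lies among probe sets of chromosome 17, where Srsf3 is, read 7.77, 7.19 and 8.51 on the CBP_EE arrays, against 7.76, 7.89, 7.30, 7.32 and 8.33 on the CBP_SC arrays. In wild type it read 6.81, 7.37 and 8.45 in enrichment, against 8.24, 8.15, 7.41, 7.32 and 8.16 in standard cages. Replicate 3 was the highest enriched array in both genotypes and among the lower standard-cage arrays in both.

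The Srsf3 difference on this probe set was 0.10 (SE 0.38) in cbp+/- and -0.31 (SE 0.38) in wild-type mice. In replicate 3 it was 1.21 in cbp+/- and 1.04 in wild type, while the mean over the 4 pairs of replicates 1 and 2 was -0.73. Probe sets 10501661 and 10424379 lie among probe sets of chromosomes 3 and 15. They differed by 0.22 and 0.17 in cbp+/- and by 0.22 and 0.11 in wild-type mice, and their deviations followed each other (r = 0.92) but not those of 10443459 (r = 0.09 and -0.12). What each of them reads could not be settled from the files.

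Among the other SR genes the housing differences were of the size of their errors or smaller. Srsf1, a founding SR protein, differed by -0.07 (SE 0.12) in cbp+/- and 0.03 (SE 0.12) in wild-type mice. Srsf2, also called the speckle protein SC35, differed by -0.06 (SE 0.18) in cbp+/- and 0.08 (SE 0.18) in wild type. Srsf6 differed by 0.06 (SE 0.11) in cbp+/- and -0.01 (SE 0.11) in wild type, and encodes a protein of the same family. Srsf11, an SR-related protein that promotes neuronal microexons, differed by -0.01 (SE 0.10) in cbp+/- and 0.11 (SE 0.10) in wild type. With replicates 1 and 2 alone, Srsf1 had -0.22 (SE 0.067) in wild type.

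Srsf2 differed more between pools than between housings. Its log2 signal was 9.83, 9.72 and 9.71 on the CBP_EE arrays, against 9.85, 9.76, 10.21, 9.49 and 9.77 on the CBP_SC arrays. In wild type it was 9.71, 9.68 and 10.20 in enrichment, against 9.85, 9.83, 10.19, 9.27 and 9.77 in standard cages. Replicate 3 was the highest in 3 of the 4 groups, and replicate 4 the lowest in both standard-cage groups.

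Over the set, 12 of 16 probe sets had a difference below 0 in cbp+/- mice and 10 of 16 in wild-type mice, where 45% and 41.6% of all tested probe sets did. Averaged over genotypes it was 11 of 16, beside 41.1% of all. The median difference of the 16 was -0.065 in cbp+/- and -0.12 in wild-type mice, beside 0.0096 and 0.029 over all probe sets. With quantile normalization 10 members were below 0 in cbp+/- mice and 8 in wild type, and with array medians subtracted 12 in each. In limma's fit over all arrays, which includes the contrast the members were chosen on, 0 of 16 passed the threshold of 0.05 after Benjamini-Hochberg adjustment in any of these housing comparisons, and neither did any other probe set (0% of 21780). At an unadjusted p under 0.05 there were 0 members in cbp+/- mice (2.82% of all), 1 in wild type (17.8%) and 2 on average (19.1%). No member had enriched arrays wholly below the standard-cage arrays, a pattern of 1.25% of all probe sets in cbp+/- mice and 2% in wild type. In replicates 1 and 2, 9 of 16 were lower in all 4 pairs, as were 15.8% of all probe sets, and 0 were higher in all 4, against 25.6% of all. The 9 were Cirbp, every Rbm3 probe set, Srsf1, Srsf2, both Srsf5 probe sets and Rbm33 on 10520388. Rbm3 and Srsf5 are thus counted more than once, by probe sets that moved together.

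The count past the adjusted threshold changed with the arrays used. With replicates 1 and 2 alone, 0 members were lower in cbp+/- mice (0% of all probe sets were), 8 in wild type (13.8%) and 7 on average (11.6%). With the arrays weighted by quality, 2 were lower in cbp+/- mice (1.59%), 4 in wild type (7.08%) and 4 on average (8.62%). Within the whole first array set, which adds standard-cage replicate 4, Cirbp alone was lower, in wild type (2.47%) and on average (2.9%). With the replicate number as a block, Cirbp alone was lower on average (1.15%), although the numbers were not shown to pair arrays across housings. These counts describe the contrast the genes were chosen on.

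Bright probe sets were shifted down as a whole in enrichment. The median difference over the tenth of probe sets as bright as each member lay between -0.039 and -0.0099 in cbp+/- mice, and between -0.093 and -0.015 in wild type. The interquartile range of log2 signals was 2.42 to 2.55 on the CBP_EE arrays and 2.30 to 2.43 on the WT_EE arrays, against 2.51 to 2.65 on the CBP_SC arrays and 2.51 to 2.59 on the WT_SC arrays. The part of this narrower range in the members' differences was not tested. With quantile normalization, which removes it, the median difference of the 16 member probe sets was -0.044 in cbp+/- and -0.034 in wild-type mice. Without it these medians were -0.065 and -0.12. Cirbp had -0.51 in wild type with quantile normalization.

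The genotype comparisons were not the contrast the genes were chosen on, but they share its arrays. The comparison in enrichment, the average over housings and the interaction use the enriched arrays on which lower Cirbp and Srsf5 had been seen, and their values for the members are descriptions. The comparison in standard cages was tested, with the reservation that its arrays were the other side of the housing contrast. Replicate numbers paired the genotypes in standard cages and less clearly in enrichment. The standard error with the number within housing as a block, chosen after seeing the data, therefore stands beside that of the group means. The block fit shares 1 estimate of the spread over both housings. Its standard error in enrichment is thus not that of the enriched pairs alone. These differed more, with a median largest difference of 0.361 over the members, against 0.205 in standard cages.

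In enrichment, Cirbp was higher on the arrays labelled cbp+/- than on wild-type arrays in 3 of 3 same-numbered pairs, by 0.29, 0.16 and 0.65. The difference was 0.37 (SE 0.16, and 0.084 with the block, whose spread is shared with the closer standard-cage pairs). It was 0.19 without WT_EE_3, 0.17 with the array sets as a block and 0.09 when limma weighted the arrays by their quality. The pattern of 3 higher pairs was found in 6 of 16 members, namely Cirbp, both Srsf5 probe sets, Srsf6 and Srsf3 on 10424379 and 10501661, beside 11.6% of all probe sets. The Srsf5 pairs on probe set 10396926 differed by 0.27, 0.10 and 0.28, with a mean of 0.22 (SE 0.22, and 0.070 with the block). Rbm3 on probe set 10603469 had pairs that disagreed, at 0.56, 0.04 and -0.22. In standard cages Cirbp differed by -0.01 (SE 0.12, 95% interval -0.27 to 0.26, adjusted p = 1 by limma; with the block -0.15 to 0.14, adjusted p = 1).

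Of the 16 member probe sets, 0 passed the adjusted threshold in either genotype comparison, as did 0% of all probe sets, and this held with the block. At an unadjusted p under 0.05 there was 1 member in enrichment, Cirbp (5.23% of all), and 0 in standard cages (0.987%). With the block there were 3 in enrichment, Cirbp and both Srsf5 probe sets (13% of all), and 0 in standard cages (4.39%). The enrichment count with the block rests on the spread shared with standard cages. In standard cages 14 of 16 members had a higher mean on arrays labelled cbp+/-, and 2 were lower, beside 46.3% of all that were lower. The standard-cage differences of the 16 lay between -0.13 and 0.11. In enrichment 11 of 16 were higher and 5 lower, beside 58.3% of all that were lower. Averaged over housings 13 of 16 were higher and 3 lower, beside 56.7% of all that were lower. Of these averages 0 had an unadjusted p under 0.05 (3.91% of all), and 3 did with the block, Cirbp, Srsf5 on 10396926 and Srsf6 (11.7%). None of the 16 was higher in all 8 same-numbered pairs (1.02% of all) and none was lower in all 8 (0.927%). The probe sets of 1 gene are not independent, and no test of the set was made.

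The genotype difference was positive in both housings for Rbm3 and Srsf5 on all their probe sets, Srsf3 on 10424379 and 10501661, Rbm33 on 10520388, and Srsf6. That of Srsf6 was 0.18 (SE 0.13, and 0.096 with the block) in enrichment and 0.11 (95% interval -0.10 to 0.32, and -0.06 to 0.28 with the block) in standard cages. Its log2 signal was 9.06, 9.08 and 9.04 on CBP_EE arrays, against 8.91, 9.06 and 8.66 on WT_EE arrays. In standard cages it was 9.08, 9.03, 8.95, 8.82 and 9.12 on CBP_SC arrays, against 9.14, 9.08, 8.86, 8.66 and 8.70 on WT_SC arrays. Pairs 3, 4 and 5 of the standard cages were higher in cbp+/- and pairs 1 and 2 lower. Rbm3 on probe set 10603469 was higher in cbp+/- in 5 of 5 standard-cage pairs, by 0.02 to 0.20, with a difference of 0.08 (95% interval -0.24 to 0.40, and -0.12 to 0.28 with the block). Srsf5 on probe set 10396926 differed by 0.03 in standard cages (-0.35 to 0.40, and -0.10 to 0.15 with the block). These standard-cage intervals all include 0.

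**Figure D3:**
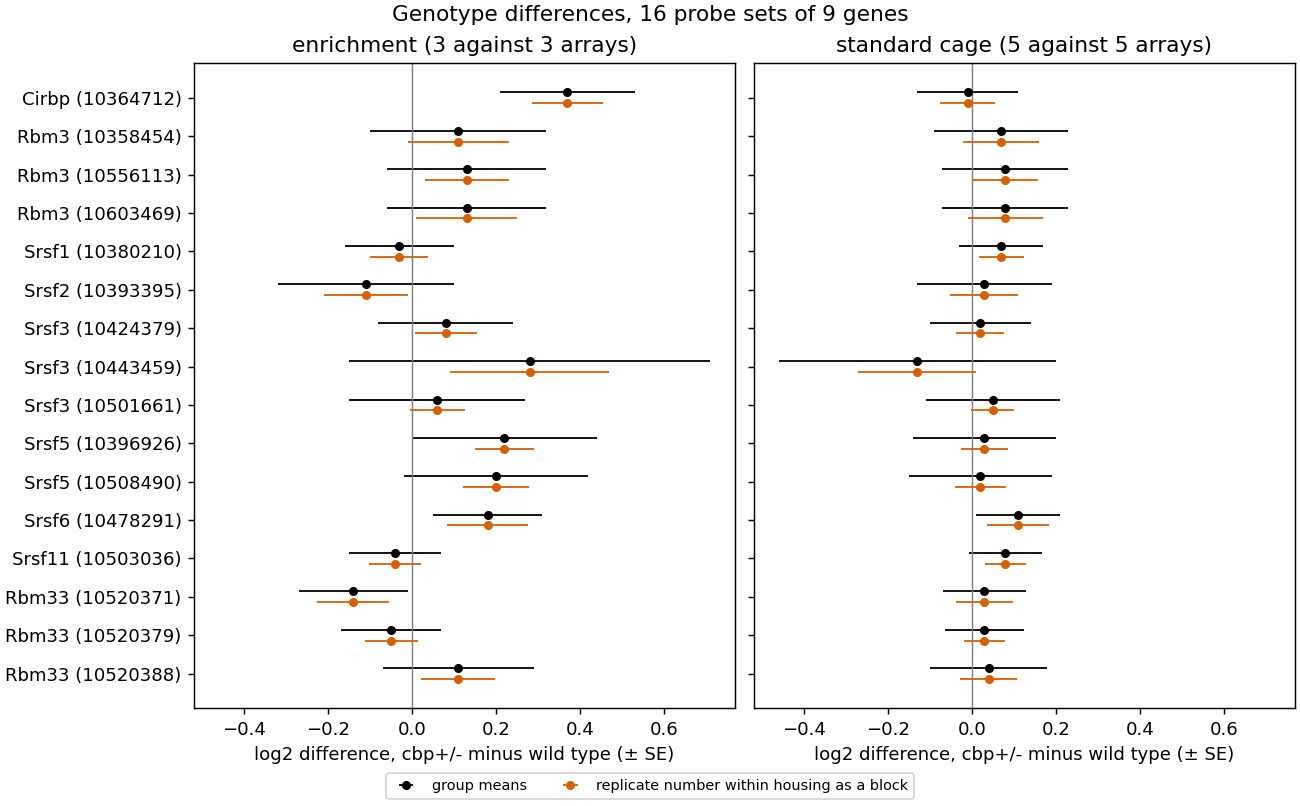
Log2 difference of arrays labelled cbp+/- minus wild type for the 16 member probe sets, in enrichment at the left (3 against 3 arrays) and in standard cages at the right (5 against 5), as points with ± 1 SE, from the group means in black and with the replicate number within housing as a block in orange. Both fits give the same differences, and for Srsf5 (10396926) in enrichment the SE is 0.22 in black and 0.070 in orange.

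The interaction is the housing difference in cbp+/- mice minus that in wild-type mice, so it is made of the differences the genes were chosen on and is given as a description. For Cirbp it was 0.38 (SE 0.20, and 0.11 with the block), and 0.19 without WT_EE_3. For Srsf5 on probe set 10396926 it was 0.19 (SE 0.28, and 0.089 with the block), for Rbm33 on 10520388 it was 0.07 (SE 0.22, and 0.11) and for Rbm3 on 10603469 it was 0.05 (SE 0.25, and 0.15). Of the 16 probe sets 5 were below 0, beside 57.5% of all, and 10 were with quantile normalization. At an adjusted p under 0.05 there were 0 members (0% of all) in either fit. At an unadjusted p under 0.05 there were 0 (2.66% of all), and with the block 1, Cirbp (6.62%).

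In standard cages, cbp+/- and wild-type pools with the same replicate number lay close together for most of these genes. The share of variation that lay between replicate numbers rather than within them had a median of 95% over the 16 member probe sets, beside 68.7% over all tested probe sets. It was 95.6% for Cirbp, 95.9% for Srsf5 (10396926), 96.4% for Srsf2 and 98.6% for Rbm33 (10520388), and lowest for Srsf6 with 60.8%. Cirbp ranged over 0.47 between the numbers, while the cbp+/- and wild-type pools of a number differed by at most 0.101. Srsf5 ranged over 0.85 and differed by at most 0.168 within a number. The largest difference within a number had a median of 0.205 over the 16 probe sets, and was 0.476 for Srsf3 on 10443459. In enrichment, with 3 numbers, the same median was 0.361, and the largest differences were 0.65 for Cirbp (number 3), 0.56 for Rbm3 on 10603469 (number 1) and 0.96 for Srsf3 on 10443459 (number 1). Replicate numbers carry no order, and what a number stands for is not given in the labels.

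**Figure D4:**
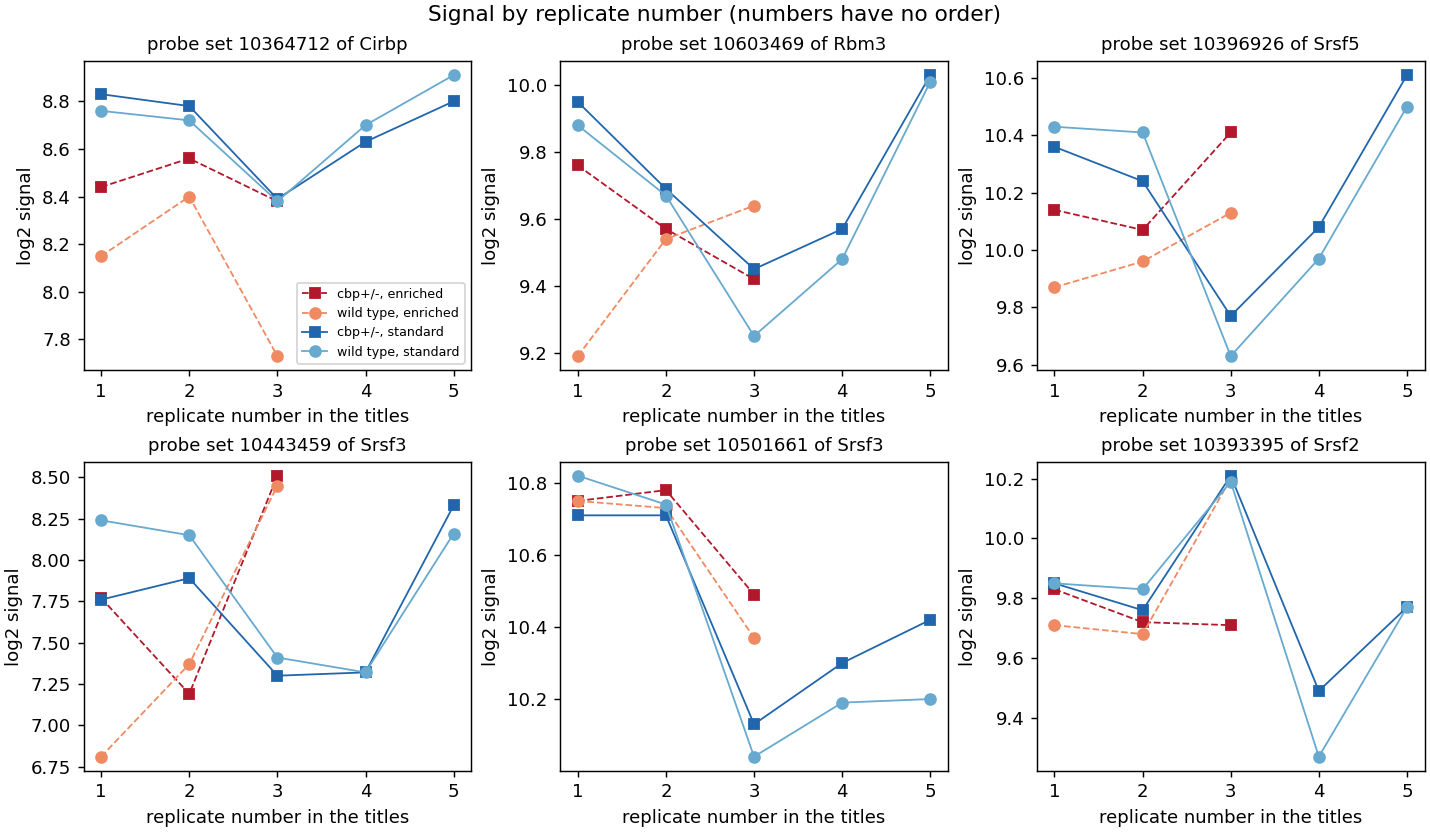
Log2 signal of 6 member probe sets by the replicate number of the titles, which has no order; lines join the arrays of a group (squares cbp+/-, circles wild type, dashed enrichment, solid standard cage). In standard cages the cbp+/- and wild-type points of a number differ by at most 0.101 for Cirbp but by 0.476 for Srsf3 on 10443459, and the enriched lines cross the standard-cage lines at number 3 for Srsf5 and for probe set 10443459 of Srsf3.

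The members did not form a single pattern across arrays. After subtraction of the group means, Srsf5 (10396926) followed Rbm33 on 10520388 (r = 0.92) and Srsf11 (r = 0.89), and Srsf1 followed Srsf3 on 10501661 (r = 0.90). Cirbp followed Srsf5 less (r = 0.50) and went against Rbm33 on 10520371 (r = -0.83). All r are over the 16 arrays and are descriptions. Outside the set, the genes most like Cirbp were Sars (r = 0.949), Hars2 (0.915), Sirt4 (0.906), Pja1 (0.896) and 4933407L21Rik (0.896). Those most like Srsf5 were Fam98a (0.967), Syncrip (0.961), Igbp1 (0.961), Ssbp1 (0.96) and Lsm8 (0.957). Of all probe sets, 14.4% had an r beyond 0.5 in size with Cirbp and 36.4% with Srsf5. The housing differences of Sars were 0.08 in cbp+/- and -0.10 in wild-type mice, beside -0.22 and -0.60 for Cirbp.

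**Figure D5:**
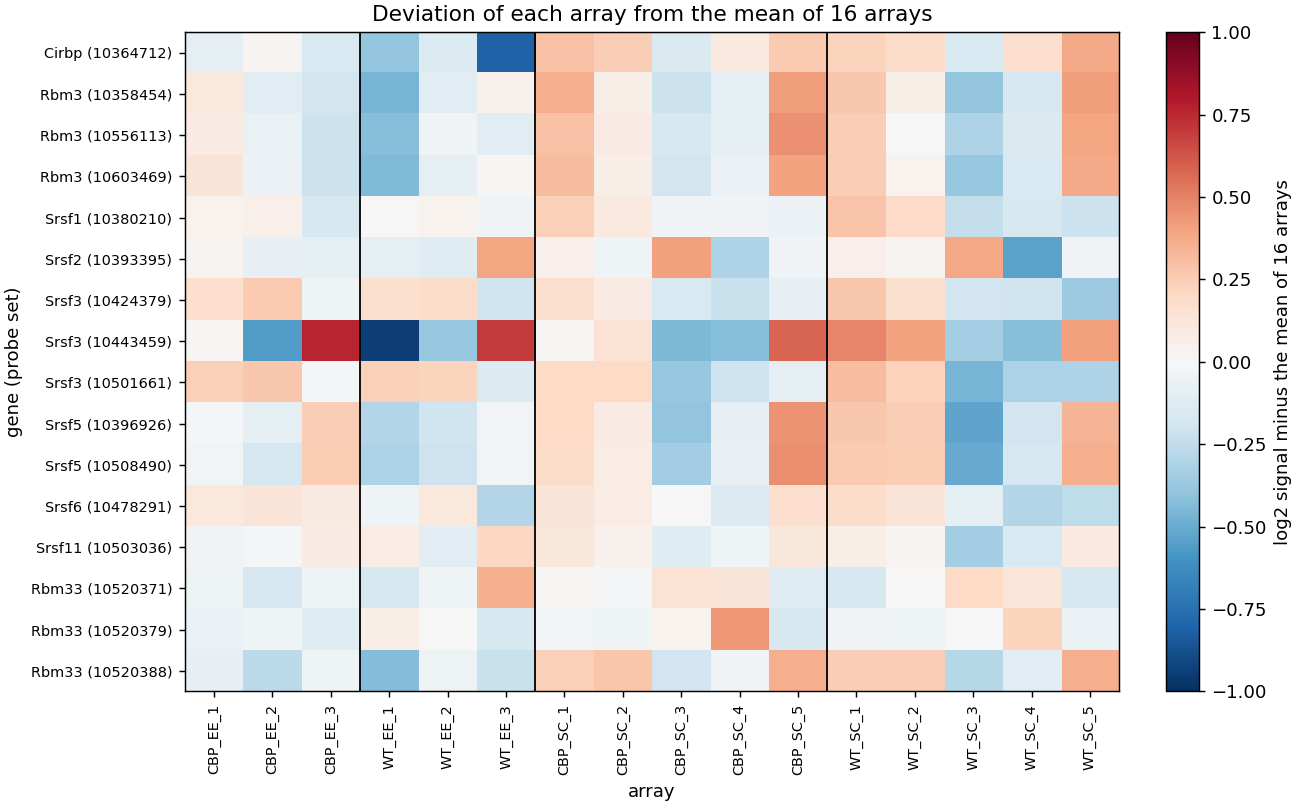
Deviation of each array from the mean of all 16 arrays (log2, colour scale from -1 to 1) for the 16 member probe sets in rows and the arrays in columns, by group, with CBP_EE, WT_EE, CBP_SC and WT_SC from left to right. Standard-cage replicate 3 is blue and replicate 5 is red for Rbm3, Srsf5 and Rbm33 (10520388) in both genotypes.

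Genes of the same pathways were read from 8 lists of related proteins, without the members, with 152 probe sets, the brightest of each gene. In limma's fit 0 of 152 passed the adjusted threshold in any comparison (0% of all). At an unadjusted p under 0.05 there were 3 higher and 0 lower in the housing comparison of cbp+/- mice, 1.97% of the list against 2.82% of all probe sets. In wild-type mice there were 2 higher (1.32% against 14.1% of all) and 11 lower (7.24% against 3.72%), and on average over genotypes 5 higher (3.29% against 13.4%) and 16 lower (10.5% against 5.73%). In both directions together the list's share was below that of all probe sets, at 8.55% against 17.8% in wild type and 13.8% against 19.1% on average. The shares of all probe sets include many dim ones, while the lists hold the brightest of each gene. With dim probe sets left out, 768 of 10890 had such a p in wild type and 1193 on average. The lower share is therefore not read as a trait of the lists.

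Averaged over genotypes, 21 of 29 other SR and SR-like probe sets were lower in enrichment, with a median difference of -0.057, beside 41.1% lower and a median of 0.021 over all probe sets. Brightness classes 7 to 10 of all probe sets had medians between -0.066 and -0.047 in this comparison. The list's median lay within that range. The smallest p values in this list belonged to Srrm1, a splicing coactivator, with -0.19 (SE 0.052, adjusted p = 0.142), Rsrp1 with -0.19 (SE 0.07, adjusted p = 0.19) and Snrnp70, the U1 snRNP protein, with -0.21 (SE 0.083, adjusted p = 0.206). In the list of kinases that phosphorylate SR proteins and their importer, 7 of 12 were lower (median -0.023). The 12 also include Ppp1ca and Nxf1, which are neither. Dyrk1a, one of these kinases, had -0.17 (SE 0.051, adjusted p = 0.155), Tnpo3, the importer, had -0.16 and Clk4 had 0.17. Of other RBM probe sets 13 of 24 were lower (median -0.012), with Rbm27 at -0.19, Rbm15 at -0.18 and Rbm22 at -0.11. Of hnRNP probe sets 9 of 23 were lower (median 0.018), with Hnrnpul1 at -0.30 and Hnrnpl at -0.19. Of neuronal splicing regulators 15 of 22 were lower (median -0.065), with Rbfox3 (NeuN) at -0.16, Celf1 at -0.17 and Mbnl3 at 0.07. With quantile normalization the medians of the kinase list and of the other RBM probe sets were above 0 (0.02 and 0.0052). With array medians subtracted that of the hnRNP probe sets was below 0 (-0.035). The SR and SR-like median was -0.01 with quantile normalization and -0.11 with array medians subtracted.

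The lists nearest to temperature did not share 1 direction. In the list of other cold shock and mild-cold genes 4 of 8 were lower (median 0.025). The 8 include Rtn3, which is not a cold shock protein. Ybx3, a cold shock domain protein, had 0.21 (SE 0.088, adjusted p = 0.231), followed by Lin28a with 0.12 and Ybx2 with 0.12. Of heat shock probe sets 4 of 16 were lower (median 0.085), with Hsph1 at 0.20 (SE 0.076, adjusted p = 0.201), Hspa1a, the inducible Hsp70, at 0.19 (adjusted p = 0.175) and Hspb1 at 0.15. Of circadian clock genes and their outputs 15 of 18 were lower (median -0.15), with Cry2, a clock repressor, at -0.33 (SE 0.13, adjusted p = 0.214), Bhlhe41 at -0.31 and Tef at -0.16. The signs of the heat shock and circadian medians were the same under both other normalizations, and that of the cold shock list was below 0 with array medians subtracted (-0.027). The hour at which the tissue of each pool was taken is not given in the labels, and its part in these values was not tested.

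Between genotypes, averaged over housings, 4 list probe sets were higher and 1 was lower at an unadjusted p under 0.05, 3.29% of the list against 3.91% of all probe sets, which is near the background. The lower one was Hlf, a clock output factor, at -0.20 (SE 0.063, adjusted p = 0.999). The higher ones included Rbmx at 0.27 (SE 0.11), Rbm4b at 0.18, Rsrp1 at 0.17 and Srpk1, an SR protein kinase, at 0.12 (adjusted p = 0.999 in each). Of the other SR and SR-like probe sets 10 of 29 were lower in cbp+/- (median 0.035). Of the hnRNP probe sets 3 of 23 were lower (median 0.054). Of all probe sets 56.7% were lower (median -0.0095), while brightness classes 7 to 10 had medians between 0.018 and 0.026. In the interaction 0 of 152 had an unadjusted p under 0.05 (2.66% of all).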

How the data were processed

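The deposited values are intensities, 1 per probe set and array, on a linear scale from RMA per the submitters' processing notes; GeneSpring GX is named per the labels' protocols. The sources used here give no versions, no test and no word on a baseline transformation. The number of arrays limits the precision. All per-sample columns were mapped to samples by title.

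Of 28815 deposited probe sets, 21780 had 1 gene symbol in the platform's probe table and were tested, 1605 had several and 5430 had none. Log2 of the intensity was fitted with limma 3.58.1 in R 4.3.3 (lmFit on the 4 group means over 16 arrays, 12 residual degrees of freedom, then eBayes), and p was adjusted by Benjamini-Hochberg over all 21780. Intervals use limma's moderated degrees of freedom. The fit was tested on simulated data. The members and lists were chosen with earlier results of these data known. Named besides the members were up to 3 genes per list with the smallest p in the averaged housing and genotype effects, and the 5 genes most like Cirbp and Srsf5. Array sets were average-linkage clusters of 1 minus the correlation of arrays.

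Replicate numbers from the titles were checked as pairs. Between genotypes, deviations of same-numbered arrays correlated at 0.544 to 0.767 in standard cages. There 4 of 5 cbp+/- arrays had the wild-type array of the same number as best partner, so the numbers pair the genotypes. In enrichment same-numbered arrays correlated at 0.257, 0.306 and 0.629, so pairing is less clear. Between housings they correlated at -0.394 to -0.0124 in wild type and -0.0435 to 0.365 in cbp+/- mice. Pairing across housings was therefore not shown. No columns were identical. Promoter sequences are from RefSeq (GRCm38.p6). Alternatives were another normalization, log2 of the intensity plus 16, a filter on dim probe sets, array weights, blocks, subsets of arrays and each array left out.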

Additional observations from a re-analysis of the deposited data

Results flagged for a closer look

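Of 32 combinations of a member probe set and a group of 5 arrays, 1 had an array far from the rest. On probe set 10520379 of Rbm33, WT_SC_4 read 8.09 (log2) and the nearest of the other 4 wild-type standard-cage arrays read 7.86, a gap of 0.783 of the group's whole range. The same-numbered array of cbp+/- mice, CBP_SC_4, read 8.30, the highest of its group too. Chance marks about 1 in 20 such combinations.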

How the results depend on the processing

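In the genotype comparisons and the interaction, 0 of 16 member probe sets passed the adjusted threshold under every alternative run. In the housing comparisons, on which the members were chosen, the count of 0 was replaced as follows, every member called being lower in enrichment. Array weights gave 2 members in cbp+/- mice (Cirbp and Rbm33 on 10520388), 4 in wild type and 4 on average. Replicates 1 and 2 alone gave 8 in wild type and 7 on average. The first array set alone gave 1 in wild type and 1 on average, both Cirbp, and the replicate block gave 1 on average, Cirbp, with 326 probe sets passing in all. The replicate block joins arrays across housings, where the numbers were not shown to pair them. Among the 152 list probe sets, array weights gave 28 in wild type (4 higher, 24 lower; 18.4%, against 24.1% of all probe sets), 4 in cbp+/- mice (1 higher, 3 lower; 2.63% against 4.77%) and 34 on average (7 higher, 27 lower; 22.4% against 28.3%). They gave 18 between genotypes in enrichment (10 higher, 8 lower; 11.8% against 11.4%), 2 between genotypes on average (Hlf and Mbnl1, both lower; 1.32% against 0.698%) and 3 in the interaction (2 higher, 1 lower; 1.97% of both). Replicates 1 and 2 alone gave 60 in wild type (9 higher, 51 lower; 39.5% against 29.9%) and 48 on average (5 higher, 43 lower; 31.6% against 25.1%). The first array set gave 10 (2 higher, 8 lower; 6.58% against 8.59%) and 9 (1 higher, 8 lower; 5.92% against 8.91%), and the replicate block gave 4 on average (all lower; 2.63% against 1.5%). Leaving out each array in turn gave 0 to 0 for every count. The block of replicate number within housing, chosen after seeing the data, gave 0 for the genotype comparisons and the interaction and changed no call. Over all probe sets, log2 of the intensity plus 16 gave 13 calls in the wild-type housing comparison, with 0 members, where the deposited scale gave 0. In wild type 41.6% of all probe sets were lower in enrichment, against 49.7% with quantile normalization and 64% with array medians subtracted. The causes of these changes were not tested. Cirbp kept its sign in both housing comparisons under every alternative, between -0.31 and -0.18 in cbp+/- mice and between -0.75 and -0.36 in wild type. Srsf5 (10396926) in cbp+/- mice was 0 to 2 decimals over all arrays and differed from 0 at that rounding under 15 of 26. Its sign over all arrays is thus not read. The other alternatives run left the counts of member and list calls at 0.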
